A study of Metroxylon sagu with 6 samples.

Results

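The transporters of the DETOXIFICATION 42 type (DTX42) were followed in leaf of sago palm (Metroxylon sagu). They were taken as the unigenes whose best SwissProt match is the Arabidopsis protein DETOXIFICATION 42, where unigenes are the transcripts that the authors' de novo assembly gave. The rule found 8 unigenes of the 99933 listed in at least 1 library. The type was chosen by the fitted difference between the phenotypes in 2 of them, CL591.Contig1_All and CL2527.Contig5_All, so the values of all 8 in that comparison are given as a description and carry no test. The ending _All, which every unigene has, is left out from here on.

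Leaf of 3 trunking palms (ST1, ST4 and ST5), which formed the normal, control group, was compared with leaf of 3 non-trunking palms (SN7, SN8 and SN9), palms that had formed no trunk. All 6 palms grew on peat soil, 1 library was made per palm, and each phenotype was sampled at a place of its own, so that phenotype and place cannot be told apart. No age was found for the sampled palms. The sample labels call SN7, SN8 and SN9 non-trunking, whereas 1 list in the study's description calls the same 3 palms trunking. The labels were followed.

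MATE transporters (multidrug and toxic compound extrusion) are membrane carriers that move organic acids, flavonoids and other small molecules out of the cytosol in exchange for protons or sodium ions. In Arabidopsis, DTX42 releases citrate from the root when aluminium is present, and the citrate binds the metal in the soil. Its close relative DTX43, also called FRD3, loads citrate into the xylem, where it carries iron to the shoot. Both are known mostly from roots, and what a DTX42 protein does in a palm leaf is not known from these data.

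The libraries held 17927176 to 18492907 expected counts each, which are estimated counts of fragments. The TMM scaling factors ran from 0.824 in SN7 to 1.13 in SN9. Leaf identity was checked with the chlorophyll a-b binding proteins, the Rubisco small subunit and Rubisco activase. The 52 unigenes of this list summed to 14997 to 28363 FPKM (fragments scaled by transcript length and library size) in the trunking palms and to 21402 to 34922 FPKM in the non-trunking palms. No unigene matched the Casparian strip proteins that mark root endodermis. The 8 xylem unigenes summed to 12.3 to 15.6 FPKM in the trunking and 8.91 to 21.4 FPKM in the non-trunking palms, and the 11 phloem unigenes to 107 to 269 and 205 to 261 FPKM. The groups overlapped in all 3 lists that had a match. The part of cell composition in the results was not tested, and in whole leaf more cells of a type and more RNA per cell cannot be told apart.

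The 8 unigenes fell into 2 assembly clusters, CL591 with 3 contigs and CL2527 with 5. All 8 also matched the orthologous group KOG1347 of predicted MATE efflux pumps, with the Arabidopsis locus At1g51340. An InterPro entry of the MATE family was listed for each, PTHR11206 for 7 and the MatE domain PF01554 for CL2527.Contig5. The KEGG column differed. It gave the MATE family (K03327) for 4 unigenes and an oxysterol-binding protein (K20456) for CL591.Contig3 and for CL2527.Contig2, Contig3 and Contig5. A GO entry was found for 0 of the 8.

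The nearest protein was from oil palm for 7 unigenes and from date palm for CL2527.Contig5. By the palm gene to which they matched, the 8 unigenes formed 3 groups. All 3 contigs of CL591 matched the same oil palm gene, described as DETOXIFICATION 42-like. CL2527.Contig1, Contig2, Contig3 and Contig5 matched isoforms of the palm gene described as DETOXIFICATION 42. CL2527.Contig4 matched a separate oil palm gene, also described as DETOXIFICATION 42-like. The contigs are 670 to 4161 nt long, and the weakest SwissProt match, that of the shortest contig CL591.Contig3, had an E-value of 1.4e-53. Contigs of 1 cluster share sequence, so reads can be divided between them by estimation, and only CL2527.Contig3 had expected counts that were whole (to 2 decimals) in all 6 libraries.

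DTX42 transcripts were higher in the leaves of non-trunking palms in 2 of the 3 gene groups. In 5 of the 8 unigenes all 3 non-trunking palms lay above all 3 trunking palms, and in the other 3 the groups overlapped. Among all 45928 unigenes tested, the non-trunking palms lay above the trunking palms in 8.71%. Because the choice rested on this same comparison, nothing is read from the difference between these shares. The filter on low counts kept 7 of the 8 unigenes, all but CL591.Contig3.

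The DETOXIFICATION 42-like gene of cluster CL591 showed the widest gap. The FPKM of CL591.Contig1 was 2.30 in ST1, 2.72 in ST4 and 2.53 in ST5, whereas SN7, SN8 and SN9 had 12.76, 17.26 and 13.30. The non-trunking palms thus stood far above the trunking palms, with no overlap. In CPM, which are counts scaled by library size and TMM factor but not by length, the values were 6.26, 6.51 and 6.76 in ST1, ST4 and ST5 and 40.8, 45.3 and 31.2 in SN7, SN8 and SN9. The CPM mean was 6.51 ± 0.252 (SD, n = 3) in the trunking and 39.1 ± 7.21 (SD, n = 3) in the non-trunking palms, a ratio of 6.0. The lowest non-trunking palm was still 4.61 times the highest trunking palm. The log2 fold change fitted by edgeR, non-trunking minus trunking, was 2.58 (SE 0.22).

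The other contigs of CL591 were less abundant. CL591.Contig2, the longest of the 8, had an FPKM of 0.65, 0.89 and 0.85 in ST1, ST4 and ST5 and of 1.89, 1.64 and 1.77 in SN7, SN8 and SN9. Its groups did not overlap either, and its fitted log2 fold change was 1.23 (SE 0.28). CL591.Contig3 was listed in ST1 alone, at 0.71 FPKM. Summed over the 3 contigs, this gene had 9.50, 9.87 and 10.3 CPM in ST1, ST4 and ST5 and 50.3, 52.1 and 37.7 CPM in SN7, SN8 and SN9, a log2 fold change of 2.24 (SE 0.21).

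The balance between the contigs of CL591 also differed between the phenotypes. CL591.Contig1 took 66.0% of the cluster's counts in ST1, 66.2% in ST4 and 65.6% in ST5. In SN7, SN8 and SN9 the same share was 81.1%, 87.1% and 82.7%, above all 3 trunking palms. CL591.Contig2 made up 29.3% to 34.4% of the counts in the trunking palms and 12.9% to 18.9% in the non-trunking palms. These shares rest on the way RSEM divided reads between overlapping contigs. CL591.Contig1 was picked for its fitted difference, which favours a higher share in the non-trunking palms, so nothing is read from this shift.

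**Figure D1:**
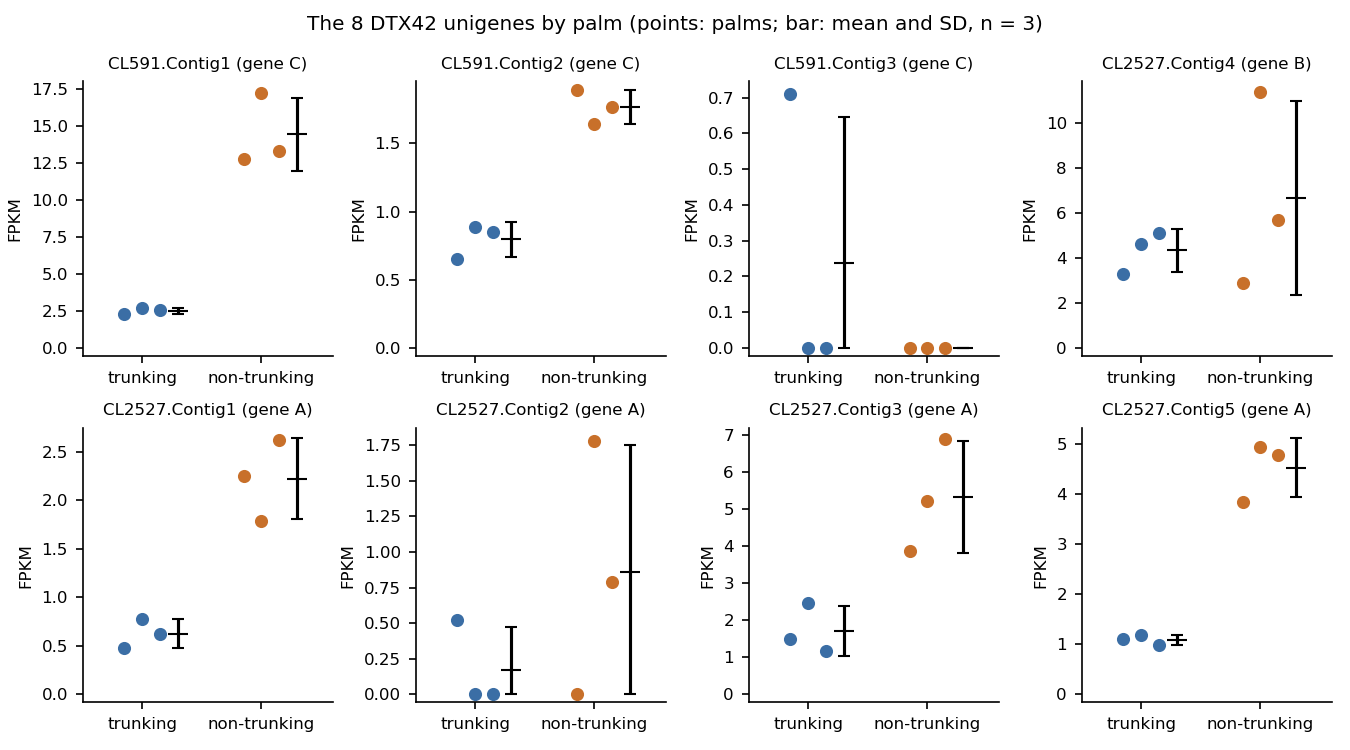
FPKM of the 8 DTX42 unigenes in each palm, with 1 point per palm and a bar at the mean of each group of 3 palms. In CL591.Contig1, CL591.Contig2 and CL2527.Contig1, Contig3 and Contig5 the non-trunking palms lie above the trunking palms, while the groups overlap in CL2527.Contig2 and Contig4 and CL591.Contig3 was listed in ST1 alone.

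The palm gene described as DETOXIFICATION 42 was seen through 4 contigs of CL2527. CL2527.Contig5 had an FPKM of 1.10 in ST1, 1.19 in ST4 and 0.98 in ST5, whereas SN7, SN8 and SN9 had 3.85, 4.94 and 4.78. Each group was tight and the gap between them was wide. Its CPM was 2.73 ± 0.187 (SD, n = 3) in the trunking and 11.7 ± 0.879 (SD, n = 3) in the non-trunking palms, a ratio of 4.28, and the fitted log2 fold change was 2.10 (SE 0.22). The lowest non-trunking palm was 3.71 times the highest trunking palm in CPM.

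CL2527.Contig1 and Contig3 were ordered in the same way. CL2527.Contig1 had an FPKM of 0.48, 0.78 and 0.62 in ST1, ST4 and ST5 and of 2.25, 1.79 and 2.62 in SN7, SN8 and SN9, with a log2 fold change of 1.89 (SE 0.34). CL2527.Contig3 had an FPKM of 1.5, 2.46 and 1.18 in ST1, ST4 and ST5 and of 3.86, 5.21 and 6.89 in SN7, SN8 and SN9, with a log2 fold change of 1.68 (SE 0.34). In both, every non-trunking palm was above every trunking palm. CL2527.Contig2 differed, since it was listed at 0.52 FPKM in ST1, 1.78 FPKM in SN8 and 0.79 FPKM in SN9 and in no other palm. With 0 in 3 of 6 libraries its groups overlapped.

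Summed over these 4 contigs, the gene had 7.26, 7.20 and 5.46 CPM in ST1, ST4 and ST5 and 24.1, 27.3 and 25.5 CPM in SN7, SN8 and SN9. The groups were far apart, and the log2 fold change of the sum was 1.95 (SE 0.21). The sum varied little among the non-trunking palms (25.7 ± 1.62 CPM, SD, n = 3), although Contig2 went from 0 to 4.19 CPM in the same palms.

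The separate gene behind CL2527.Contig4 did not part the phenotypes. Its FPKM was 3.28 in ST1, 4.61 in ST4 and 5.13 in ST5, and that of SN7, SN8 and SN9 was 2.90, 11.40 and 5.71. SN7 was the lowest of all 6 palms and SN8 the highest, so the groups overlapped. The mean was 10.6 ± 2.26 CPM (SD, n = 3) in the trunking and 16.6 ± 10.3 CPM (SD, n = 3) in the non-trunking palms, and the log2 fold change was 0.65 (SE 0.45). Without SN8, the fitted log2 fold change was 0.02. In counts, CL2527.Contig4 took 53.8% to 70.3% of its cluster in the trunking palms and 26.7% to 50.9% in the non-trunking palms. The cluster also holds CL2527.Contig5, which was picked for its fitted difference. That choice favours a lower share of CL2527.Contig4 in the non-trunking palms, so nothing is read from this shift.

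**Figure D2:**
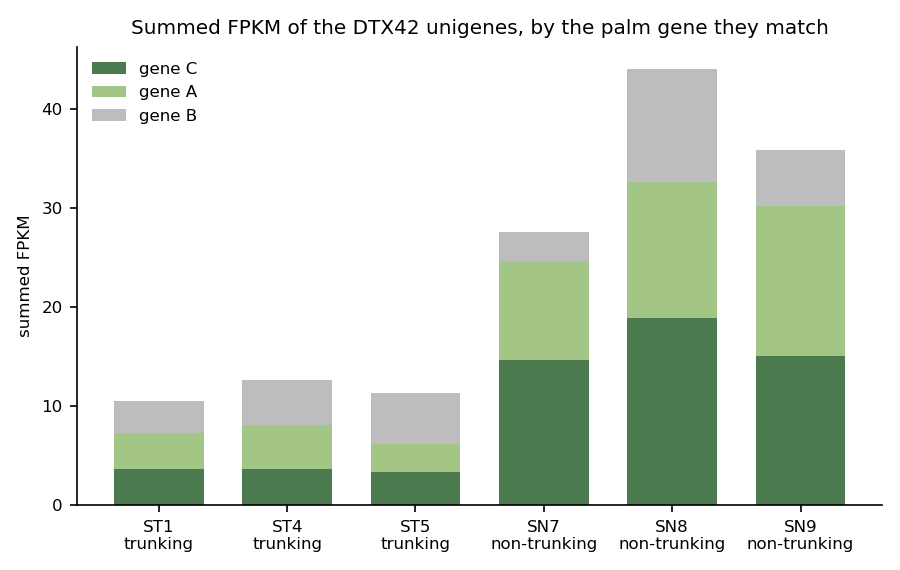
FPKM summed over the contigs that matched each of the 3 palm genes, stacked in 1 bar per palm. The sums of the CL591 gene and of the gene of CL2527.Contig1, Contig2, Contig3 and Contig5 are higher in each non-trunking palm, and those of CL2527.Contig4 overlap.

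The order of the levels changed with the phenotype. Per length, the most abundant DTX42 unigene of all 3 trunking palms was CL2527.Contig4, and in all 3 non-trunking palms it was CL591.Contig1. CL591.Contig1 was picked for its fitted difference, which favours such a change of order, so nothing is read from the change. On the mean FPKM of the 6 palms, CL591.Contig1 stood above 87.4% of the listed unigenes and CL2527.Contig4 above 82.4%. CL2527.Contig3 (76.2%) and CL2527.Contig5 (73.0%) followed, then CL2527.Contig1 (62.4%), CL591.Contig2 (60.6%), CL2527.Contig2 (39%) and CL591.Contig3 (6.40%). Neighbours in this order overlapped in FPKM in at least 1 phenotype, except for 2 pairs. CL2527.Contig5 was above CL2527.Contig1 in both phenotypes without overlap, and CL591.Contig1 and CL2527.Contig4 did not overlap in either phenotype but changed places between them.

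The 2 unigenes with the widest gaps varied little among the trunking palms. These palms varied by 3.87% (coefficient of variation of the CPM) in CL591.Contig1 and by 6.86% in CL2527.Contig5. Counting error alone gives 9.11% and 14.1% at these depths. Both unigenes were picked for their fitted difference, which favours a small spread within groups, so nothing is read from this closeness. The non-trunking palms varied by 18.4% and 7.51%, where counting error gives 3.82% and 6.96%. In log2 CPM over the 6 palms, the 5 unigenes whose groups did not overlap had pairwise Pearson's r of 0.869 to 0.995. CL2527.Contig4 correlated with them at 0.282 to 0.474. These values describe 6 palms in 2 groups, and a shared difference between the groups is enough to give a high r.

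The DTX42 unigenes made up a small part of the MATE transcripts of the leaf. Their summed FPKM was 10.54, 12.65 and 11.29 in ST1, ST4 and ST5 and 27.51, 44.02 and 35.86 in SN7, SN8 and SN9. The 54 unigenes of other MATE types summed to 335.72, 318.93 and 461.8 FPKM in the trunking and to 643.65, 535.83 and 630.06 FPKM in the non-trunking palms. Both sums were higher in every non-trunking palm. The DTX42 share of all MATE FPKM was 3.04%, 3.82% and 2.39% in ST1, ST4 and ST5 and 4.10%, 7.59% and 5.39% in SN7, SN8 and SN9, which does not overlap. The DTX42 sum holds CL591.Contig1 and CL2527.Contig5, which were picked for their fitted difference. That choice favours a higher share in the non-trunking palms, so nothing is read from the share.

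Other MATE transporters were also higher in non-trunking palms more often than lower. The comparison of phenotypes was made over all 45928 unigenes by edgeR's quasi-likelihood test (two-sided, Benjamini-Hochberg adjustment). In this fit 0 unigenes (0.00%) passed the threshold of 0.05 after adjustment, the smallest adjusted p being 0.161. Without adjustment 4526 unigenes (9.85%) passed it, 2492 (5.43%) with a higher and 2034 (4.43%) with a lower level in non-trunking leaves. DESeq2 gave 1175 of the 52929 unigenes with an adjusted p (2.22%), the likelihood ratio test of edgeR 771 and limma on log2(FPKM + 1) 4. The median log2 fold change over all unigenes tested was 0.02.

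Of the 54 other MATE unigenes 41 were tested. An unadjusted p under 0.05 was found for 16 (39%) with a higher level in non-trunking palms and for 0 with a lower level. Their log2 fold change was above 0 in 35 of 41, against 23610 of all 45928 unigenes tested, with a median of 0.81. The groups did not overlap in 16 (39%) with the non-trunking palms higher, against 8.71% of all unigenes. They did not overlap in 1 with the non-trunking palms lower, against 3928 of all 45928 unigenes. DESeq2 gave an adjusted p under 0.05 for 8, all of them higher. Contigs of 1 cluster are not independent, and when counts were summed per cluster 12 of 22 clusters were higher and 0 lower at an unadjusted p under 0.05, where 6.07% of all 25629 clusters and single unigenes were higher. The direction held in all alternatives except that 1 unigene was lower without the filter, with DESeq2's test at an unadjusted p and without SN7.

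Among the named MATE unigenes, Unigene19212 matched DTX35, which in Arabidopsis acts at the vacuole in flavonoid and chloride transport. Its CPM was 1.08, 2.49 and 1.21 in ST1, ST4 and ST5 and 16.9, 14.8 and 9.13 in SN7, SN8 and SN9, and the log2 fold change was 3.08 (SE 0.44, adjusted p = 0.183, edgeR). The groups were far apart. The difference did not pass the adjusted threshold in edgeR but did in DESeq2. CL2723.Contig1, matched to DTX34, had 5.01, 10.4 and 5.83 CPM against 39.4, 22.7 and 23.8 CPM, and Unigene9559, matched to DTX21, had 14.0, 10.8 and 11.4 CPM against 28.1, 22.1 and 24.4 CPM. Both were higher in every non-trunking palm, with adjusted p of 0.202 and 0.212 in edgeR, and both passed the adjusted threshold in DESeq2. The MATE unigene of highest mean FPKM over the 6 palms was Unigene13769, matched to DTX16, with 169, 96.9 and 182 CPM in the trunking and 272, 297 and 239 CPM in the non-trunking palms (log2 fold change 0.85, SE 0.31, adjusted p = 0.449, edgeR). In ST5 and SN7 it was exceeded by CL4327.Contig1, matched to DTX49, with 368 and 478 CPM, which is named for this reason.

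The 54 unigenes belonged to 21 MATE types, of which 17 had a tested unigene and 9 had at least 1 with an unadjusted p under 0.05. All tested unigenes of DTX12 (1), DTX27 (3), DTX29 (2), DTX34 (3) and DTX35 (1) were among them, and part of those of DTX16 (1 of 4), DTX18 (2 of 3), DTX21 (2 of 5) and DTX41 (1 of 5). In Arabidopsis, DTX18 exports hydroxycinnamic acid amides and DTX41, also called TT12, loads flavonoids into the vacuole of the seed coat. In 3 of the 16 unigenes the groups overlapped, namely CL3083.Contig1 (DTX21), Unigene391 (DTX29) and CL2478.Contig5 (DTX41), which are named because of this overlap. No unigene matched DTX43 (FRD3). The nearest other relatives of DTX42, the plastid types DTX44 and DTX45, had 7 tested unigenes with log2 fold changes from −0.38 to 2.31. An unadjusted p under 0.05 was found for 0 of the 7, against 9.85% of all unigenes. A count of 0 in so few is no result about these types. The non-trunking palms were all higher in CL7342.Contig5 (DTX44, log2 fold change 2.31) and all lower in CL5064.Contig1 (DTX45, log2 fold change −0.38).

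**Figure D3:**
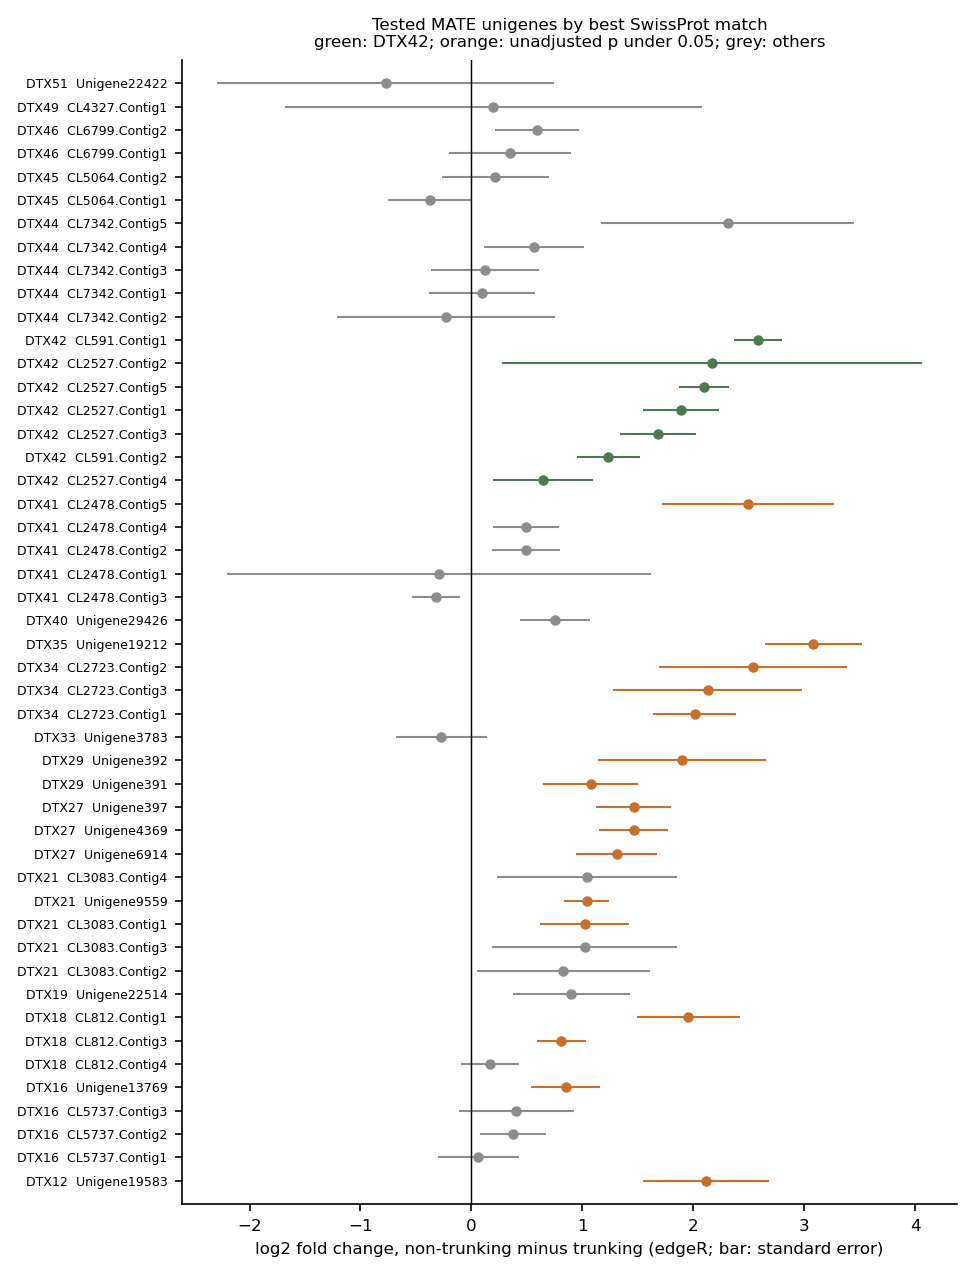
Log2 fold change (non-trunking minus trunking, edgeR) of the tested MATE unigenes by DTX type, with 1 point per unigene and the DTX42 unigenes shown apart. Most points lie above 0, with 35 of 41 for the types other than DTX42, against 23610 of all 45928 unigenes tested.

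The genes around citrate and aluminium were described through 4 further lists, which were chosen with earlier results of these data known. The malate channels (ALMT), the other class of organic acid exporter that aluminium activates in roots, came next. Of 4 tested unigenes 0 had an unadjusted p under 0.05, and the median log2 fold change was −0.11. With 9.85% of all unigenes past this p, a count of 0 in so short a list is no result about the channels. Unigene512, matched to ALMT12, an anion channel of guard cells in Arabidopsis, had 6.09, 8.70 and 3.19 CPM in the trunking and 7.12, 7.59 and 12.9 CPM in the non-trunking palms, which overlap. The log2 fold changes of CL6171.Contig1 and CL6171.Contig2, both matched to the vacuolar channel ALMT9, were −0.60 (SE 0.53) and −0.21 (SE 0.52).

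Of 11 tested aluminium tolerance unigenes, 2 were higher and 2 lower at an unadjusted p under 0.05 (36.4% in all, against 9.85% of all unigenes), and both of the lower ones matched by name alone. Unigene7135 matched STAR1, the nucleotide-binding subunit of an ABC transporter needed for aluminium tolerance in rice. It had 5.06, 2.44 and 1.10 CPM in the trunking and 17.6, 13.3 and 8.74 CPM in the non-trunking palms, with no overlap (log2 fold change 2.20, SE 0.57, adjusted p = 0.318, edgeR), and it passed the adjusted threshold in DESeq2. CL10240.Contig1, matched to the tomato abscisic stress-ripening protein 2, had 21.3, 15.1 and 13.1 CPM against 36.9, 21.6 and 28.3 CPM, a log2 fold change of 0.81 (SE 0.29). CL368.Contig1, the unigene of highest mean FPKM in this list, matched to the same protein, had the same log2 fold change of 0.81 with a wider error (SE 0.58), and its groups overlapped.

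The 2 lower unigenes, CL258.Contig1 and CL258.Contig2, match acetolactate synthase, an enzyme of branched-chain amino acid synthesis, and entered the list only because its gene name is shared with an aluminium gene. CL258.Contig1 had 60.3, 78.6 and 80.1 CPM in the trunking and 35.3, 49.8 and 37.5 CPM in the non-trunking palms (log2 fold change −0.84, SE 0.23). Without unigenes that matched by name alone, 2 of the list were left past an unadjusted p of 0.05, both higher, where 5.43% of all unigenes were higher. The number higher was 1 without ST4, ST5, SN7 or SN9, 3 without ST1 and 4 without SN8. With so few unigenes nothing is read from their direction.

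Of 171 unigenes of citrate and malate metabolism, 9 were higher and 3 lower at an unadjusted p under 0.05. These were 11.9% of those of the list that were tested, against 9.85% of all unigenes. By direction, 8.91% were higher, against 5.43% of all unigenes, and 2.97% lower, against 4.43%. The groups lay apart with the non-trunking palms higher in 19 (18.8%, against 8.71% of all unigenes). They lay apart with these palms lower in 5, against 3928 of all 45928 unigenes. The log2 fold change was above 0 in 77 and below 0 in 24, against 23610 and 22318 of all unigenes tested. Many unigenes of the list share a cluster, and contigs of 1 cluster are not independent, so nothing is read from these counts. The 12 became 8 with counts summed per cluster and stayed 12 without unigenes matched by name alone. The median log2 fold change was 0.26. CL1895.Contig3 matched mitochondrial citrate synthase, the enzyme that makes citrate. It had 35.3, 42.2 and 57.2 CPM in the trunking and 14.7, 19.5 and 13.7 CPM in the non-trunking palms. Fitted by edgeR, this was a log2 fold change of −1.49 (SE 0.26, adjusted p = 0.194, edgeR), past the adjusted threshold in DESeq2. This contig was lower in every non-trunking palm, whereas most tested unigenes of the list had a log2 fold change above 0. The other 2 lower unigenes were CL7883.Contig2, matched to glyoxysomal citrate synthase, with at most 2.20 CPM in any palm, and CL234.Contig4, matched to NADP isocitrate dehydrogenase, with a log2 fold change of −0.94 (SE 0.34). Both are named because only 3 were lower.

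Another contig of the same cluster, CL234.Contig2, lay in the other direction, with 24.7, 20.5 and 13.4 CPM in the trunking and 41.2, 36.8 and 45.7 CPM in the non-trunking palms (log2 fold change 1.08, SE 0.27). CL10254.Contig2, matched to cytoplasmic malate dehydrogenase, had 29.6, 32.4 and 31.0 CPM against 68.6, 59.9 and 57.6 CPM, a log2 fold change of 1.00 (SE 0.18, adjusted p = 0.200, edgeR), also past the adjusted threshold in DESeq2. Every non-trunking palm was above every trunking palm. The unigene of highest mean FPKM in the list, CL5466.Contig3 of chloroplast NADP malate dehydrogenase, had overlapping groups and a log2 fold change of 0.26 (SE 0.29).

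Of 71 tested iron handling unigenes, 13 were higher and 2 lower at an unadjusted p under 0.05 (21.1% in all, against 9.85% of all unigenes). The count rested largely on 1 cluster. CL1954, matched to YSL12 and YSL14, carriers of metals bound to nicotianamine, held 17 of the tested contigs and 9 of the 15, of which 8 were higher. Outside it 6 of 54 (11.1%) had an unadjusted p under 0.05, which is near the 9.85% of all unigenes. With counts summed per cluster 5 clusters were past that threshold, where 11.0% of all 25629 clusters and single unigenes were. The number of the list's clusters in that fit is not given here, so nothing is read from this count. In the fit by unigene, the tested unigenes of the list lay in 30 clusters and single unigenes.

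CL1954.Contig8 (YSL12) had 6.89, 6.0 and 5.50 CPM in the trunking and 25.8, 25.5 and 24.3 CPM in the non-trunking palms. Fitted by edgeR, this was a log2 fold change of 2.04 (SE 0.19). Its adjusted p of 0.161 in edgeR was the smallest reached, which 26 unigenes share, and it passed the adjusted threshold in DESeq2. CL1954.Contig2 (YSL14) and CL1954.Contig4 (YSL12) had log2 fold changes of 1.84 (SE 0.38) and 1.97 (SE 0.44), and both passed the adjusted threshold in DESeq2. The 2 lower unigenes were CL1954.Contig9, also matched to YSL12 (log2 fold change −0.999, SE 0.34), and Unigene703, matched to a vacuolar iron transporter (log2 fold change −1.15, SE 0.36), named because only 2 were lower. The unigene of highest mean FPKM in the list, CL5236.Contig1, matched OPT3, a carrier of the phloem that takes part in iron signalling from shoot to root in Arabidopsis. Its groups overlapped, with a log2 fold change of 0.18 (SE 0.38).

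**Figure D4:**
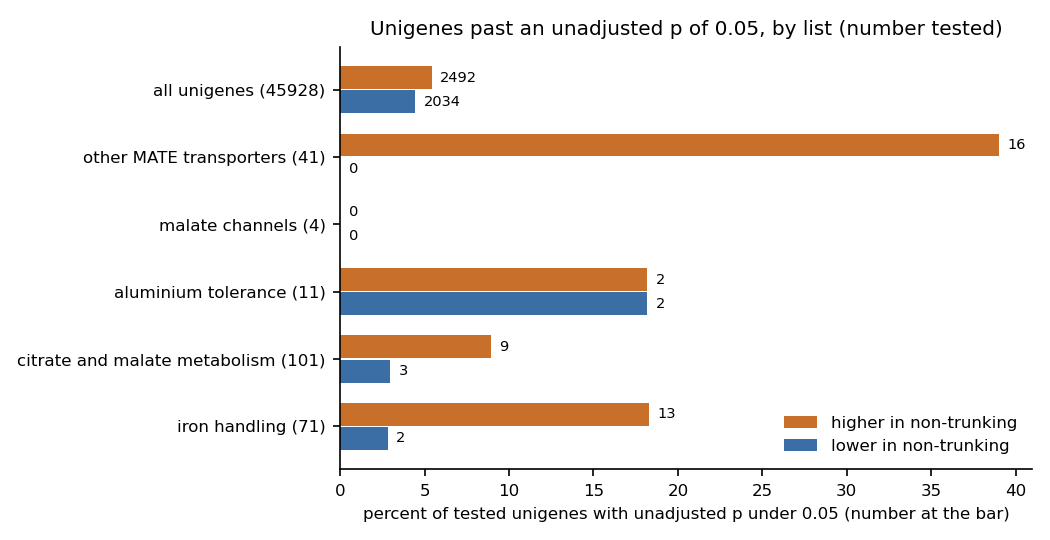
Percent of tested unigenes in each of the 5 lists with an unadjusted p under 0.05 in edgeR, higher or lower in non-trunking palms, beside the same over all unigenes. Other MATE transporters stand at 39% higher and 0 lower, against 5.43% and 4.43% of all unigenes.

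The unigenes whose level ran most like the DTX42 unigenes over the 6 palms were found by Pearson's r on log2 CPM. For CL591.Contig1, 28841 unigenes with a SwissProt match and a mean of at least 1 CPM were compared. The 5 most alike were CL2041.Contig18, matched to the peptidyl-prolyl isomerase CYP95 (r = 1.000), CL8443.Contig2, matched to the peptide hormone RALF-like 1 (r = 0.996), CL1983.Contig3, matched to trans-cinnamate 4-monooxygenase of the phenylpropanoid pathway (r = 0.996), CL348.Contig1, matched to ABC transporter C family member 10 (r = 0.996), and CL2527.Contig5 (r = 0.995). CL2041.Contig18 was at 0 in all 3 trunking palms.

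For CL2527.Contig5 the 5 were CL8443.Contig2 (r = 0.999), CL1954.Contig8 of the iron list (r = 0.998), CL2668.Contig4, matched to COP9 signalosome subunit 1 (r = 0.997), CL2041.Contig18 (r = 0.996) and CL591.Contig1 (r = 0.995). Both DTX42 unigenes were picked for the same difference between the groups, so their r with each other follows from that choice, and Spearman's rho between them was 0.771. An r above 0.9 was reached by 567 of 28841 unigenes with CL591.Contig1 and by 604 of 28838 with CL2527.Contig5. An r below −0.9 was reached by 525 and 566. The 5 named for each are thus a small part of the unigenes with a high r.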

How the data were processed

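Leaf RNA of 6 palms was sequenced on the BGISEQ-500. The authors assembled the reads with Trinity, clustered contigs with TGICL, mapped reads with Bowtie2 and estimated expression with RSEM, whose versions the sources used here do not give. The authors deposited expected counts (not normalized) and FPKM per unigene, for unigenes of at least 0.01 FPKM. A unigene not listed in a library was set to 0. No batch was labelled.

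Expected counts were rounded and fitted with edgeR 4.0.16 under R 4.3.3 (quasi-likelihood test, TMM scaling, filterByExpr, Benjamini-Hochberg, threshold 0.05). The fit was tested on simulated data, where it recovered 195 of 200 unigenes changed 4-fold, with 10 false calls. The dispersion there, the square of the biological coefficient of variation, was 0.05. That is lower than in these palms, whose coefficient was 0.497, so the simulation does not show what the fit can find here. DESeq2 1.42.0, limma 3.58.1 and the edgeR likelihood ratio test were alternatives, with other scalings, filters and pseudocounts, sums per cluster and each palm left out in turn. Replicates were separate palms.

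The members and lists were chosen with earlier results of these data known. Lists were taken by words in the SwissProt match. Named were all DTX42 unigenes, in each list the 3 smallest p and the highest mean FPKM, and for each of 2 members the 5 highest r. Others are marked as named for their values. Sequences were not used here.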

Additional observations from a re-analysis of the deposited data

How the results depend on the processing

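No alternative changed the direction of the 7 fitted DTX42 unigenes. The log2 fold change of CL591.Contig1 ran from 2.12 to 2.71 over 16 alternatives and that of CL2527.Contig5 from 1.29 to 2.15. On log2(FPKM + 1), by limma or as a plain difference, they were 2.12 and 1.40, and CL2527.Contig5 gave 1.95 on log2(FPKM + 0.1). This scale understates changes of low unigenes. With counts summed per cluster, they were 2.24 and 1.29, the latter for a sum that also holds the separate gene of CL2527.Contig4. Summed per matched palm gene, which was chosen after seeing the data, they were 2.24 and 1.95. CL2527.Contig4 ran from 0.02 without SN8 to 0.95 without SN7, leaving aside the cluster sum of 1.29, which holds the contigs of the other gene. CL2527.Contig2, at 0 in 3 palms, ran from 0.57 to 8.16, the last without ST1.

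The 16 other MATE unigenes past an unadjusted p of 0.05 became 11 to 15 with 1 palm left out and 11 to 20 over all settings. The 4 aluminium tolerance unigenes became 2 without ST5, SN7 or SN9, 6 without SN8, 2 summed per cluster and 2 without those matched by name alone. The 12 of citrate and malate metabolism became 25 without the filter, 7 without ST5 and 21 without SN8. The 15 of iron handling became 5 summed per cluster and 11 to 21 with 1 palm left out. Over all unigenes, the 0 past an adjusted p of 0.05 became 1175 with DESeq2, 771 with the likelihood ratio test and 4 with limma, and the 4526 at an unadjusted p became 7691 without the filter and 3275 to 5907 with 1 palm left out. The causes were not tested.

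Of the 5 unigenes most like CL591.Contig1, 1 was kept with Spearman's rho and 2 on log2(FPKM + 1), and of those most like CL2527.Contig5, 0 and 3. With 6 palms, 77 and 88 unigenes shared a rho of 1. No paired analysis was possible because the groups share no replicate number. The biological coefficient of variation over all unigenes was 0.497. For CL2527.Contig5, counting error alone is 14.1% in the trunking palms.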

Other observations

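CL2527.Contig2 was listed in 1 trunking and 2 non-trunking palms, and it matched the same palm isoform as CL2527.Contig3, which was found in all 6. The counts of CL2527.Contig3 were whole in all 6 libraries, those of CL2527.Contig2 in 0 of the 3 that list it. Of the 4 unigenes that carry the KEGG entry of an oxysterol-binding protein, CL2527.Contig3 and CL2527.Contig5 were among the 5 whose groups did not overlap. A search by KEGG entry for MATE transporters would find 4 of the 8 unigenes.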
